A study of Mus musculus with 6 samples.

Results

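The intestinal stem cell and Wnt target genes described here are 9 genes of the crypt base, Lgr5, Olfm4, Ascl2, Smoc2, Axin2, Sox9, Rnf43, Lrig1 and Tnfrsf19. They were taken by name, as all probe sets whose symbol in the platform annotation is exactly 1 of these 9, which gave 20 of the 45037 probe sets tested. Expression was measured on 6 single-colour Affymetrix arrays of RNA from the terminal ileum of 3-month-old female mice on the 129S6 background. The Duoxa-/- group held 3 pools and the wild-type (wt) group 3 pools, each of RNA from 2 to 3 mice, and each of 3 cages, which were separate litters, gave 1 pool of each genotype. Duoxa-/- mice lack the DUOX maturation factors, which the dual oxidases need to reach the cell surface and release hydrogen peroxide. The comparison asks whether crypt stem cell genes differ between Duoxa-/- mice and wt littermates of the same cage. All values are RMA log2 values, and every difference is Duoxa-/- minus wt.

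Stem cells at the base of each crypt renew the epithelium of the small intestine. They are kept by Wnt signals from Paneth cells and the surrounding mesenchyme. Wnt binding to Frizzled and LRP receptors stops the destruction complex of APC, AXIN and GSK3 from removing beta-catenin, which then joins TCF/LEF factors on target genes. R-spondins strengthen the signal through LGR receptors, and several Wnt targets, such as Axin2 and Rnf43, encode inhibitors that close a feedback loop. Of the members, Sox9 is also made by Paneth cells, and Axin2 by mesenchymal cells that answer to Wnt.

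Promoter windows of the members are shown because TCF/LEF factors bind Wnt target genes. RefSeq windows (GRCm38.p6) of 300 bases, from 250 before to 50 after a transcript start, were matched by symbol for 6 of the 9 members, 8 windows in all. The letters CTTTGNN, with A or T at each N, were searched on both strands, and so was their core CTTTG, which every match of the longer letters contains. The 3 windows below, given 5′ to 3′ in the direction of the gene, are those of Axin2, a direct Wnt target, of Ascl2, the member with the highest difference, and the window of Tnfrsf19 that held the letters, in capitals.
Axin2 (chr11:108920099-108920398, plus strand): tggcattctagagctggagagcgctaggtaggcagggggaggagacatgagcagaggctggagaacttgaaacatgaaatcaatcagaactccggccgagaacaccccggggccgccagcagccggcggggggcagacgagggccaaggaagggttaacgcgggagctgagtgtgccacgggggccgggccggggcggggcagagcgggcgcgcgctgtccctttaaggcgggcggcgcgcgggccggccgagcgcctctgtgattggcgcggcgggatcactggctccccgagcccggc
Ascl2 (chr7:142969215-142969514, minus strand): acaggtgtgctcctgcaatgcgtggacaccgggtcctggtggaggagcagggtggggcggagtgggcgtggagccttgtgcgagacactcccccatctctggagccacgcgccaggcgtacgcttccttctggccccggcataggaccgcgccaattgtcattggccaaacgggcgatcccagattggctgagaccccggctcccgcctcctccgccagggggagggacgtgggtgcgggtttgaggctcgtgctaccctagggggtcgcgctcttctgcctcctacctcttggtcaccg
Tnfrsf19 (chr14:61037938-61038237, minus strand): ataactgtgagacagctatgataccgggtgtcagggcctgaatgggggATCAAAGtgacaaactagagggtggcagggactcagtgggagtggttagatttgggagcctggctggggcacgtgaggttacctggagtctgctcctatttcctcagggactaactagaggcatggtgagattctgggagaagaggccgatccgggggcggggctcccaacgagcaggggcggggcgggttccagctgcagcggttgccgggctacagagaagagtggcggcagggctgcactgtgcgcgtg
In the Tnfrsf19 window the letters ATCAAAG, which read CTTTGAT on the other strand, began 202 bases before the transcript start. They were present in 1 of the 8 windows, against 16.9% of all 32851 promoter windows, and the core was present in the same 1 window, against 53.9% of all windows. A match or its absence in these windows is a description of the letters only.

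The genotype of the pools was read from Duoxa2, the maturation factor of DUOX2. Its probe set read 5.90, 5.55 and 5.92 in the Duoxa-/- pools of cages 1, 2 and 3, against 8.81, 8.36 and 7.24 in the wt pools. No pool overlapped with the other group. The difference of -2.34 (95% interval -3.10 to -1.58) had an adjusted p of 0.794 over all probe sets, and of 0.0158 when the wt pool of cage 3 was left out. The probe set of Duoxa1, the maturation factor of DUOX1, read 6.22, 5.92 and 6.33 in Duoxa-/- pools, against 6.41, 6.26 and 6.25 in wt pools, where the groups overlapped, and its difference of -0.15 (SE 0.12) had an adjusted p of 0.822. The sources used here do not say whether either probe set lies inside the deleted part. Array medians lay between 6.55 and 6.60, and any 2 arrays had an r of 0.994 to 0.998 over the probe sets. Of the markers of the ileal mucosa, 11 of 12 measured enterocyte genes and 8 of 8 goblet cell genes read at or above the median of all probe sets, 6.58. The 2 pools of cage 1 stood apart in their smooth muscle markers. Relative to the mean over the 6 pools, these lay at 0.45 in the wt pool and -0.33 in the Duoxa-/- pool.

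None of the 9 stem cell and Wnt target genes passed the test for a difference between Duoxa-/- and wt ileum. With limma, 0 of the 20 member probe sets passed an adjusted p under 0.05, as did 0% of all probe sets, and the adjusted p of the members lay between 0.794 and 0.988. At an unadjusted p under 0.05, 1 of 20 passed, against 5.98% of all probe sets. The differences of the 20 probe sets ran from -0.30 to 0.29, with a median of 0.034, against 0.0013 over all probe sets. Of the 20, 11 were higher and 9 lower in Duoxa-/- pools, against 50.4% and 49.6% of all probe sets. The main probe set of a gene, the brightest on average over the 6 pools, had a 95% interval within -0.38 to 0.46 for each of the 9 genes. These bounds correspond to 0.767 and 1.37 times the wt level. Fewer stem cells and less RNA per stem cell cannot be told apart in RNA of whole mucosa, and p values measure the spread between pools only.

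**Figure D1:**
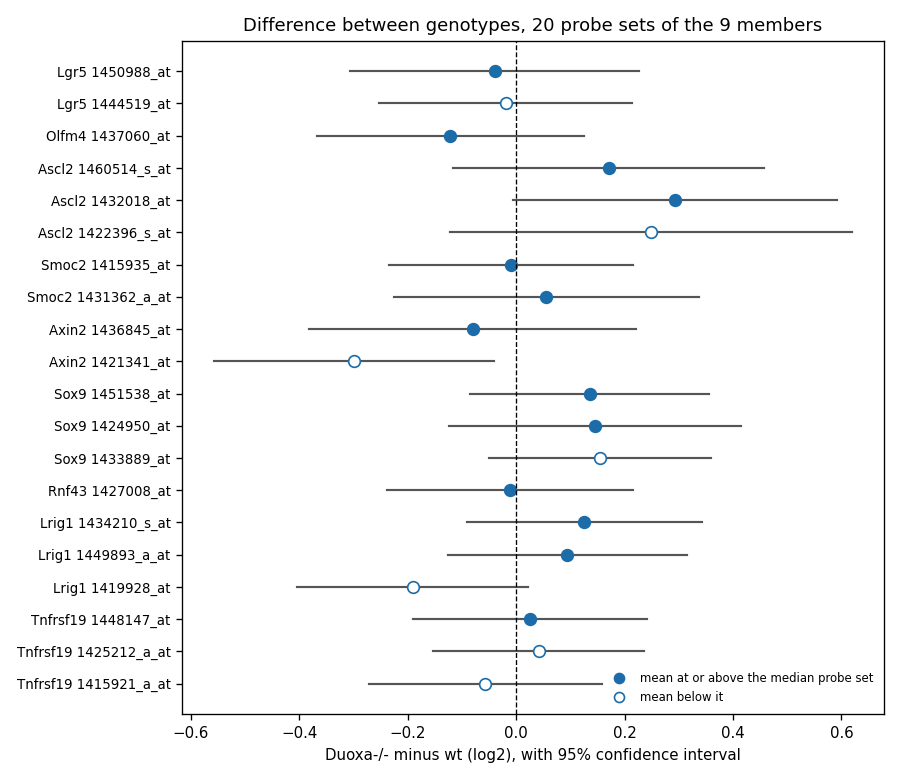
Difference between genotypes (Duoxa-/- minus wt, log2, x axis) of the 20 probe sets of the 9 members, with limma's 95% confidence interval as a line. Filled points have a mean at or above the median of all probe sets and open points below it. The interval of 1 probe set, the dim Axin2 set 1421341_at, lies wholly on 1 side of 0, from -0.56 to -0.040.

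Lgr5, the R-spondin receptor that marks the cycling stem cells of the crypt base, did not pass the test on either of its 2 probe sets. Its main probe set, 1450988_at, read 8.95, 9.02 and 9.31 in the Duoxa-/- pools of cages 1, 2 and 3, against 9.23, 8.97 and 9.20 in the wt pools. The groups overlapped, and the lowest Duoxa-/- pool was that of cage 1. The difference was -0.040 (SE 0.12, 95% interval -0.31 to 0.23, limma adjusted p = 0.955). By cage it was -0.27, 0.053 and 0.10. The dimmer probe set 1444519_at, with a mean below the median of all probe sets, differed by -0.019 (SE 0.10).

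Olfm4, a secreted glycoprotein of crypt-base cells whose expression depends on Notch signals, read 12.80, 12.71 and 13.04 in Duoxa-/- pools, against 13.10, 12.90 and 12.90 in wt pools. The Duoxa-/- pools of cages 1 and 2 were the lowest of the 6, and that of cage 3 lay inside the wt range. The difference was -0.12 (SE 0.11, 95% interval -0.37 to 0.13, adjusted p = 0.837). It was -0.30 in cage 1 and -0.19 in cage 2, and 0.13 in cage 3. Leaving out single pools moved it, to -0.22 without the Duoxa-/- pool of cage 3, to -0.051 when the Duoxa-/- pool of cage 2 was left out, and to -0.055 when the wt pool of cage 1 was.

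Ascl2, the basic helix-loop-helix factor that sets the stem cell programme downstream of Wnt, had the highest differences of the members in Duoxa-/- pools, and none of its probe sets passed. On 1432018_at it read 6.70, 7.19 and 7.15 in Duoxa-/- pools, against 6.68, 6.78 and 6.71 in wt pools. The Duoxa-/- pools of cages 2 and 3 lay above all wt pools, and that of cage 1 lay within the wt range. The difference on this probe set was 0.29 (SE 0.13, 95% interval -0.0057 to 0.59), with a limma adjusted p of 0.794.

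The main Ascl2 probe set, 1460514_s_at, read 7.40, 7.67 and 7.83 in Duoxa-/- pools, against 7.35, 7.40 and 7.63 in wt pools, a difference of 0.17 (SE 0.13). It was higher in the Duoxa-/- pool of each cage, by 0.046, 0.26 and 0.20, the groups overlapped, and cage 3 had the highest pool of both genotypes. The dim Ascl2 probe set 1422396_s_at differed by 0.25 (SE 0.16), with 0.78 in cage 2, against 0.034 in cage 1 and -0.068 in cage 3. Without both pools of cage 2 its difference was -0.017. In all, 8 of the 9 cage differences of Ascl2 were above 0. Probe sets of a gene share its RNA and are not replicates.

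Sox9, a transcription factor of crypt progenitors and Paneth cells and a Wnt target, was the member whose probe sets were all higher in the Duoxa-/- pool of every cage, 9 of 9 cage differences. Its main probe set, 1451538_at, read 8.86, 9.05 and 8.74 in Duoxa-/- pools, against 8.80, 8.75 and 8.70 in wt pools. The Duoxa-/- pools of cages 1 and 2 lay above all wt pools, and that of cage 3 lay within the wt range. The differences of the 3 probe sets were 0.14, 0.15 and 0.15, with SEs of 0.097, 0.12 and 0.090, and limma adjusted p values between 0.795 and 0.824. Leaving out single pools moved the size and not the sign. The main probe set differed by 0.054 without the Duoxa-/- pool of cage 2 and by 0.21 without that of cage 3, and 1424950_at by 0.058 without the wt pool of cage 3 and by 0.25 without the Duoxa-/- pool of cage 3. The 7 measured Paneth cell markers had a median difference of -0.026, with 3 higher and 4 lower. Their mean lay at 0.0023, 0.25 and -0.26 in the Duoxa-/- pools relative to the mean of the 6 pools, against 0.10, 0.045 and -0.14 in the wt pools. The highest Duoxa-/- pool of that list was also the highest for Sox9 on its main probe set, and the part of Paneth cell RNA in the Sox9 values was not tested.

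**Figure D2:**
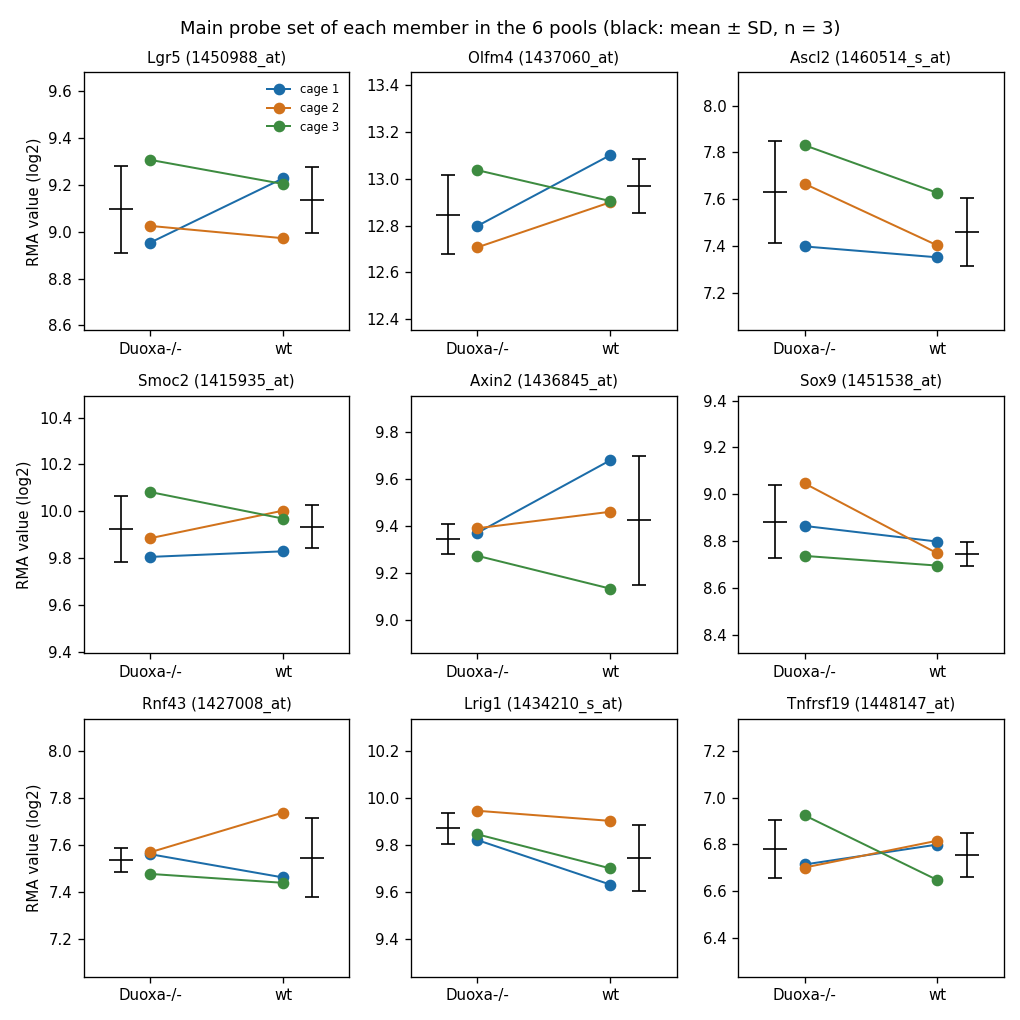
RMA value (log2, y axis, each panel spanning the same width) of the main probe set of each member in the Duoxa-/- pools (left) and wt pools (right), with lines joining the 2 pools of a cage and black marks for mean ± SD (n = 3). The groups overlap in all 9 panels, and in cage 3 all 9 lines are higher on the Duoxa-/- side.

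Axin2, a scaffold of the destruction complex and the usual reporter of Wnt signalling, gave unequal values on its 2 probe sets. The main probe set, 1436845_at, read 9.37, 9.39 and 9.27 in Duoxa-/- pools, against 9.68, 9.46 and 9.13 in wt pools. The 3 Duoxa-/- pools lay inside the wt range. The difference was -0.080 (SE 0.13, 95% interval -0.38 to 0.22, adjusted p = 0.912).

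The dim Axin2 probe set, 1421341_at, read 5.07, 5.20 and 5.03 in Duoxa-/- pools, against 5.62, 5.34 and 5.22 in wt pools. The groups did not overlap, by a margin of 0.026 between the highest Duoxa-/- and the lowest wt pool. The difference was -0.30 (SE 0.11), with an unadjusted p of 0.0283, the single one under 0.05 among the members, and an adjusted p of 0.794. On both probe sets cage 1 had the largest difference, -0.55 on the dim and -0.31 on the main probe set. In that cage the smooth muscle markers lay at -0.33 in the Duoxa-/- pool and 0.45 in the wt pool, relative to the mean of the 6 pools, and the fibroblast and stroma markers at -0.036 and 0.31. Their part in the Axin2 values was not tested.

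Rnf43, the ubiquitin ligase that removes Frizzled receptors from the cell surface, read 7.56, 7.57 and 7.48 in Duoxa-/- pools, against 7.46, 7.74 and 7.44 in wt pools. The Duoxa-/- pools lay inside the wt range. The difference was -0.011 (SE 0.10, 95% interval -0.24 to 0.22, adjusted p = 0.987).

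Smoc2, a matricellular calcium-binding protein of the stem cell signature, read 9.81, 9.89 and 10.08 in Duoxa-/- pools on its main probe set, 1415935_at, against 9.83, 10.003 and 9.97 in wt pools. In both genotypes the pool of cage 1 was the lowest, and the groups overlapped. The difference was -0.0094 (SE 0.099, 95% interval -0.23 to 0.21, adjusted p = 0.988). The probe set 1431362_a_at differed by 0.056 (SE 0.12).

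Lrig1, a transmembrane inhibitor of ERBB receptors that restrains stem cell division, was measured by 3 probe sets that disagreed in direction. The main one, 1434210_s_at, read 9.82, 9.95 and 9.85 in Duoxa-/- pools, against 9.63, 9.90 and 9.70 in wt pools, a difference of 0.13 (SE 0.095) that was positive in each cage. The Duoxa-/- pools lay between the wt pools of cages 3 and 2 or above them, and the groups overlapped. The probe set 1449893_a_at differed by 0.094 (SE 0.097). The dim probe set 1419928_at read 5.43, 5.46 and 5.48 in Duoxa-/- pools, against 5.81, 5.52 and 5.61 in wt pools. On it the groups did not overlap, with all Duoxa-/- pools lower, and the difference was -0.19 (SE 0.094, adjusted p = 0.794).

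Tnfrsf19, the TNF receptor family member also called Troy and a Wnt target of crypt-base cells, read 6.71, 6.70 and 6.92 in Duoxa-/- pools on 1448147_at, against 6.80, 6.82 and 6.65 in wt pools. The Duoxa-/- pool of cage 3 was the highest of the 6, and the other pools of that group lay inside the wt range. The difference was 0.026 (SE 0.095, adjusted p = 0.965). Its 2 other probe sets, both dim, differed by 0.042 (SE 0.085) and -0.057 (SE 0.094).

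Over the 20 probe sets, 0 were higher and 2 lower in Duoxa-/- pools without overlap between the groups, the dim sets of Axin2 and Lrig1, against 6.25% and 5.36% of all probe sets. In all 3 cages 7 were higher and 2 lower, against 15.3% and 14.3% of all probe sets, and 5 of these 7 belong to Sox9 and Ascl2. Of the 20 probe sets, 13 had a mean at or above 6.58, and their median difference was 0.056, against 0.025 over all probe sets at that level. The 7 dim ones had a median of -0.019.

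Within a pool the 9 genes lay on both sides of their own means. Relative to each gene's own mean over the 6 pools, the mean of the 9 main probe sets was -0.058, 0.014 and 0.078 in the Duoxa-/- pools of cages 1, 2 and 3, against 0.0074, 0.014 and -0.055 in the wt pools. The highest and the lowest pool were thus both Duoxa-/-. In the Duoxa-/- pools 3, 5 and 6 of the 9 genes lay above their own mean, against 4, 5 and 3 in the wt pools.

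The sign of the members' differences varied by cage. In cage 3 all 9 main probe sets were higher in the Duoxa-/- pool, with a median of 0.13, against 50.0% of all genes. All 9 lie at or above 6.58, where 6294 of 11608 genes were higher. The 7 dim probe sets of the members did not follow, with 3 higher in cage 3 and a median of -0.068. In cage 1, 4 of 9 main probe sets were higher, with a median of -0.024, against 50.5% of all genes. In cage 2, 4 of 9 were higher, with a median of -0.070, against 42.2% of all genes. Of the 11608 genes at or above 6.58, 6759 were higher in cage 1 and 4751 in cage 2. A cage holds 1 pool of each genotype, so the genotype difference within a cage has no replicates. Its change from cage to cage was not tested. In cage 3 the 9 measured enteroendocrine markers were also all higher in the Duoxa-/- pool, where their mean lay at 0.36, against 0.16 in the wt pool. Of the 15 Wnt and R-spondin receptor genes, a list without Lgr5, 14 were higher in cage 3, with a median of 0.10, against 5 in cage 1 and 9 in cage 2. Of all genes 50.0% were higher in cage 3. Of 9 EGF family genes 8 were higher in cage 3, with a median of 0.19, and of 7 endothelium markers 6, with a median of 0.23. Of 15 BMP pathway genes 11 were higher, with a median of 0.068. Some other lists had a smaller share of genes higher in that cage. Of 11 other Wnt target genes of the crypt 4 were higher, with a median of -0.043. Of 7 repair-associated genes 4 were higher, with a median of 0.066, and of 7 Paneth cell markers 1, with a median of -0.12. The part of other cell types in the pattern of cage 3 was not tested.

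Litters were compared with limma's F-test between cages with genotype in the fit. Of the 20 member probe sets 0 passed, with adjusted p between 0.886 and 0.996, against 0.00222% of all probe sets, which is 1 probe set. At an unadjusted p under 0.05, 2 of 20 passed, against 5.55% of all probe sets. Ascl2 on 1460514_s_at averaged 7.38, 7.53 and 7.73 in cages 1, 2 and 3 (unadjusted p = 0.0414), and Sox9 on 1424950_at averaged 7.96, 7.98 and 7.69 (unadjusted p = 0.0398). On these 2 probe sets cage 3 was thus the highest for Ascl2 and the lowest for Sox9. The other Ascl2 probe sets were not alike in this. On 1432018_at the cages averaged 6.69, 6.99 and 6.93, with cage 2 the highest, and on 1422396_s_at 4.59, 4.71 and 4.84.

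The genes whose profile over the 6 pools was most like that of Lgr5 were Podn, Gas1 and Brms1, among 11607 genes with a mean at or above 6.58. Their standardised values differed from those of Lgr5 by a mean of 0.093, 0.10 and 0.11 SD over the 6 pools, against a median of 1.19 over all these genes. Olfm4 was the member nearest to Lgr5 by this measure, at rank 938 (0.60 SD). Ascl2 and Smoc2 stood at 0.65 and 0.66 SD, Tnfrsf19 at 0.76, Axin2 at 1.28, Sox9 at 1.44, Lrig1 at 1.56 and Rnf43 at 1.62. The genes most like Olfm4 were Rnf167, Fam114a2 and Tbc1d24, at 0.076, 0.083 and 0.088 SD. These ranks describe 6 pools and were not tested.

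The rest of the pathway was read from 12 further lists of niche and signalling genes, 147 of 155 genes measured, with 1 probe set per gene. With limma 0 of the 147 passed, as did 0% of all genes, and 8 had an unadjusted p under 0.05, against 5.41% of all genes. By direction, 88 were higher and 59 lower in Duoxa-/- pools, with a median of 0.044, against a median of -0.012 over all genes, of which 46.1% were higher. Of the 147, 117 read at or above 6.58, and 75 of these were higher, with a median of 0.053, against 52.4% of all genes at that level and a median of 0.0082. Without overlap between the groups, 11 of the 147 were higher and 3 lower, against 924 and 1176 of all 18193 genes. Of the 117 these were 11 and 1, against 777 and 669 of 11608 genes at that level.

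Of 13 Wnt ligands, R-spondins and secretion factors, 6 were higher and 7 lower, with a median difference of -0.016. Wnt3, the ligand made by Paneth cells, differed by -0.18 (SE 0.082) at a level far below the median of all probe sets. Its groups did not overlap, with the Duoxa-/- pools lower. Wnt5a, a mesenchymal ligand, differed by 0.21 (SE 0.14). Of 15 receptors, 7 were higher and 8 lower, with a median of -0.0081. The Frizzled receptor Fzd3 had the smallest unadjusted p of the list, 0.00753, with 7.14, 6.997 and 7.21 in Duoxa-/- pools, against 6.58, 6.91 and 6.75 in wt pools. Its groups did not overlap, and its difference of 0.37 (SE 0.11) had an adjusted p of 0.794. The co-receptor Lrp6 differed by -0.35 (SE 0.18), with -0.68 in cage 2 and 0.046 in cage 3.

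Of 12 genes of the destruction complex and signal relay, 5 were higher and 7 lower, with a median of -0.0066. The kinase gene Gsk3a differed by -0.18 (SE 0.090) and the APC-binding Amer1 by 0.13 (SE 0.090). Of 11 TCF/LEF factors and co-factors, 4 were higher and 7 lower, with a median of -0.037, among them the repressive factor Tcf7l1 at -0.32 (SE 0.15) and the co-repressor Tle1 at 0.15 (SE 0.088). Of 11 Wnt inhibitors, 4 were higher and 7 lower, with a median of -0.040. The Dickkopf genes Dkk2 and Dkk3 differed by 0.22 (SE 0.10) and 0.13 (SE 0.076), both without overlap between the groups. None of these genes passed the test over all probe sets.

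Of 11 further Wnt targets of the crypt, 9 were higher and 2 lower, with a median of 0.062. The 2 with the smallest p were Znrf3, the ubiquitin ligase related to Rnf43, at -0.10 (SE 0.077), and the homeobox gene Prox1 at 0.17 (SE 0.13). The groups did not overlap for Znrf3, with the Duoxa-/- pools lower. Of 16 other crypt-base and reserve stem cell genes, 7 were higher and 9 lower, with a median of -0.0064. Bmi1, a Polycomb gene used as a marker of reserve stem cells, read 10.21, 10.27 and 10.28 in Duoxa-/- pools, against 10.05, 10.09 and 10.09 in wt pools. The groups did not overlap, and the difference of 0.18 (SE 0.075) had an adjusted p of 0.794 and was 0.17, 0.18 and 0.19 in cages 1, 2 and 3. The RNA-binding protein gene Msi1 differed by -0.35 (SE 0.14), with -0.57, -0.37 and -0.10 in cages 1, 2 and 3.

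The Notch list, whose signals keep crypt cells from secretory fates, had a median of 0.012 over 13 genes, with Notch1 at 0.088 (SE 0.082) and Jag2 at 0.13 (SE 0.13). The BMP list, whose signals rise toward the villus, had a median of 0.047 over 15 genes, 11 higher and 4 lower, with Bmp5 at 0.15 (SE 0.082) and Smad5 at 0.12 (SE 0.095). Of 17 cell cycle genes 16 were higher, with a median of 0.14, against 4 of 9 and -0.0094 for the members' main probe sets and 46.1% of all genes (52.4% of those at or above 6.58, where 16 of the 17 lie). The difference between these lists was not tested. Rrm2 and Aurka, the 2 with the smallest p, differed by 0.39 (SE 0.17) and 0.25 (SE 0.11), and neither passed. The cell cycle median was 0.34, 0.082 and 0.030 in cages 1, 2 and 3. Beside it, 11 of 12 enterocyte markers were lower, with a median of -0.10, and 10 of 10 smooth muscle markers, with a median of -0.24. Of all genes 53.9% were lower, and 5525 of the 11608 at or above 6.58. At that level lie 11 of the 12 enterocyte and 10 of the 10 smooth muscle markers. By cage the enterocyte median was -0.14, -0.25 and 0.031, and 7 of the 12 were higher in cage 3. The smooth muscle median was -0.75, 0.18 and -0.098, and 9 of the 10 were higher in cage 2. T cell markers had medians of 0.55, -0.54 and -0.25 in cages 1, 2 and 3, and B and plasma cell markers of 0.18, -0.062 and -0.082. The part of these cell types in the cell cycle values was not tested.

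**Figure D3:**
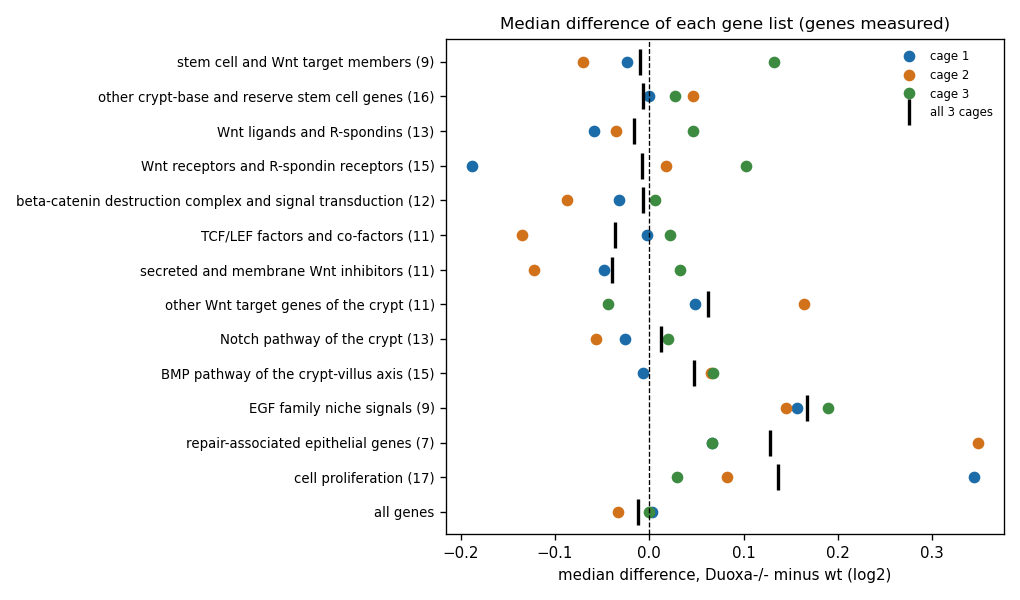
Median difference (Duoxa-/- minus wt, log2, x axis) of the members and of 12 further gene lists, with the number of genes measured in brackets, in each cage (coloured points) and over all 3 cages (black bars), beside all genes. The members' median is 0.13 in cage 3 and below 0 in cages 1 and 2, and the Wnt ligand, receptor and signal relay lists have overall medians between -0.016 and -0.0066.

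**Figure D4:**
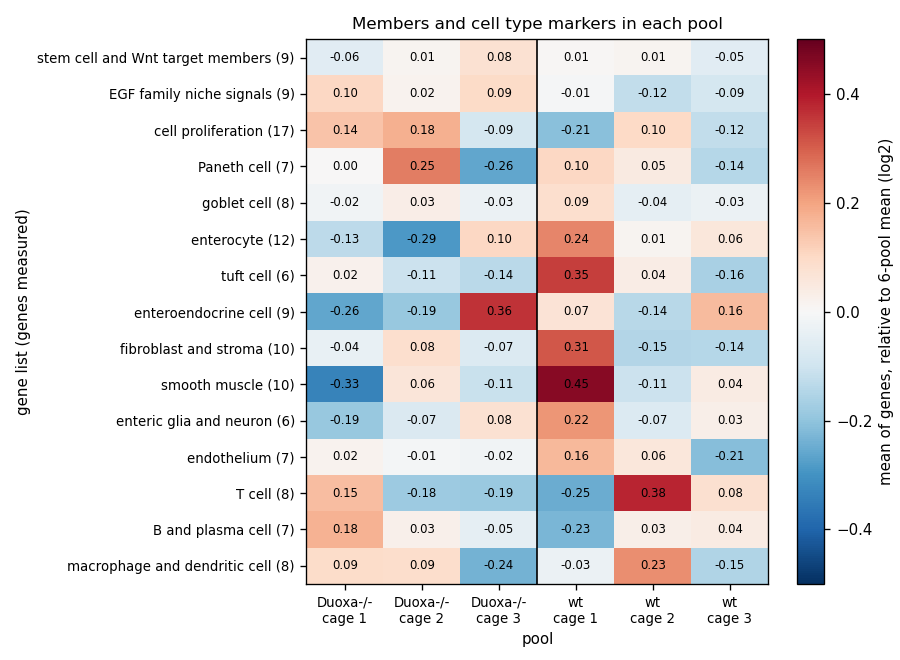
Mean of the members, of EGF family and cell cycle genes, and of 12 lists of cell type markers in each pool, relative to each gene's mean over the 6 pools (log2, colour and printed value), with the Duoxa-/- pools on the left and the wt pools on the right. The mean of the members stays between -0.058 and 0.078, although Axin2 alone runs from -0.25 to 0.30. The mean of the smooth muscle markers in cage 1 lies at -0.33 in the Duoxa-/- pool and 0.45 in the wt pool.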

How the data were processed

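Total RNA of ileal mucosa was labelled with biotin and hybridised to single-colour arrays, 1 per pool, per the labels' protocols. The authors deposited log2 values per probe set. These were made by RMA (affy package), according to the submitters' processing notes, which name no version. The method subtracts background, gives the arrays a common distribution and compresses differences of dim probe sets. The 64 control probe sets among 45101 rows were dropped. In the platform annotation, 34945 of the 45037 that remained had 1 symbol, 932 several and 9160 none, and 0 symbols changed against RefSeq (34741 matched). Lists used the brightest probe set of each of 18193 genes.

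Genotypes were compared by lmFit and eBayes of limma (version 3.58.1, R 4.3.3), two-sided, over all probe sets and 6 arrays without a cage term, with Benjamini-Hochberg adjustment and a threshold of 0.05. The fits were tested on simulated data with errors independent between pools and probe sets. Cell type effects shared by many probe sets were not part of that simulation. Tables used Python 3.11.15 and pandas 2.3.3, and figures matplotlib 3.10.9. The members, lists and tests were chosen with earlier results of these data known. The text names each member and, per pathway list, the 2 genes with the smallest p. Cages pair the pools, being separate litters in the series' design text. Deviations from group means of same-cage pools correlated across probe sets with r of -0.15, 0.069 and 0.29, against -0.38 to 0.38 for pools of different cages. Precision is limited by there being 6 arrays, and no detection calls were used here.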

Additional observations from a re-analysis of the deposited data

How the results depend on the processing

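No alternative changed a call for the members. Hardly any of all probe sets passed in any setting, so this says little about how stable the members' values are. None of the 20 probe sets passed under any of 16 alternatives of the genotype test (smallest adjusted p 0.448) or 5 of the cage test. With cage as a replicate block, 0 of 45037 probe sets passed, as without it, 2971 against 2692 had an unadjusted p under 0.05, and the block changed no call. Leaving out pools or cages, the count of all probe sets called between genotypes lay between 0 and 1. The 1 was Duoxa2 without the wt pool of cage 3 (adjusted p = 0.0158). Between cages the 1 called probe set became 2 with 1 probe set per gene, 0 without probe sets ending in _x_at, _s_at or _a_at, and 5 with an intensity trend. The cause was not tested.

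The median difference over the members ran from -0.00018 to 0.065 with pools or cages left out, and from -0.011 to 0.056 under the others. Of 295 single values 28 changed sign, in 11 probe sets, and none passed. With pools or cages left out, Lgr5 ran from -0.15 to 0.078 on 1450988_at and from -0.11 to 0.075 on 1444519_at, Ascl2 on 1422396_s_at from -0.017 to 0.41, Smoc2 from -0.088 to 0.050 on 1415935_at and from -0.054 to 0.18 on 1431362_a_at, and Axin2 on 1436845_at from -0.23 to 0.048. Rnf43 ran from -0.066 to 0.085, Lrig1 on 1449893_a_at from -0.0021 to 0.17, and Tnfrsf19 from -0.10 to 0.096 on 1448147_at, from -0.011 to 0.081 on 1425212_a_at and from -0.16 to 0.039 on 1415921_a_at. With the same pools or cages left out, the 9 probe sets that kept their sign ran from -0.25 to -0.030 for Olfm4, from 0.072 to 0.29 and 0.21 to 0.45 for Ascl2 on 1460514_s_at and 1432018_at, from -0.38 to -0.17 for Axin2 on 1421341_at, from 0.054 to 0.21, 0.058 to 0.25 and 0.11 to 0.23 for Sox9 on 1451538_at, 1424950_at and 1433889_at, and from 0.069 to 0.21 and -0.26 to -0.095 for Lrig1 on 1434210_s_at and 1419928_at. Lgr5 on 1444519_at was 0.0011 after a further quantile normalization, and Rnf43 0.0061 with array weights. Dim probe sets are limited by signal over background, which these values do not give.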

Other observations

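Ligand and receptor genes of the EGF family, whose signals support crypt cell division, held 4 of the 8 pathway genes with an unadjusted p under 0.05, a level that 5.41% of all genes reached. Of 9 measured, 7 were higher and 2 lower in Duoxa-/- pools, with a median difference of 0.17 and medians of 0.16, 0.15 and 0.19 in cages 1, 2 and 3. Of all genes 46.1% were higher, with a median of -0.012, and 52.4% of those at or above 6.58, where 8 of the 9 lie. In all 3 cages 5 of the 9 were higher and 0 lower, against 2448 and 3022 of 18193 genes. Without overlap between the groups 3 were higher and 0 lower, against 924 and 1176 of 18193 genes. Nrg1, a ligand of ERBB receptors made by mesenchymal cells, read 7.09, 6.95 and 7.09 in Duoxa-/- pools, against 6.80, 6.38 and 6.75 in wt pools. The groups did not overlap, and the difference of 0.40 (SE 0.12) had a limma adjusted p of 0.794. Hbegf, a ligand of EGFR, differed by 0.43 (SE 0.17), with 0.20, 0.94 and 0.15 in cages 1, 2 and 3. Btc, another ligand, and the receptor gene Egfr, both named after their values were seen, differed by 0.26 (SE 0.11) and 0.24 (SE 0.10), each higher in all 3 cages. The 2 lower genes, also named after their values were seen, were the receptor genes Erbb3 at -0.17 (SE 0.099) and Erbb2 at -0.12 (SE 0.094). None of the 9 passed over all probe sets.

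Of 7 measured repair-associated epithelial genes, 7 were higher, with a median of 0.13 and medians of 0.067, 0.35 and 0.066 in cages 1, 2 and 3. Of all genes 46.1% were higher, and 52.4% of those at or above 6.58, where all 7 lie. Ptgs2, the inducible cyclooxygenase gene, differed by 0.38 (SE 0.15) and Yap1, a transcriptional co-activator, by 0.14 (SE 0.085), and neither passed (adjusted p = 0.794 and 0.796).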
